A study of Danio rerio with 9 samples.

Results

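Of the 103079 transcripts with values from an assembly of zebrafish heart and muscle, 21 were restricted to adult heart. They were chosen by their FPKM, the number of sequenced fragments of a transcript scaled to its length and to the size of the library. Each had a value above 10 FPKM in all 3 adult heart samples and a value below 0.5 FPKM in all 3 embryonic heart and all 3 adult muscle samples. RNA-seq was carried out on 9 samples of untreated wild-type zebrafish of the WIK strain, with embryonic hearts at 4 days, adult hearts at 6 months, and muscle labelled only as coming from adult fish. Samples of each tissue type are numbered 0, 1, and 2. The samples of a tissue type are described as biological samples, and the number of fish in each is not given in the sources used here. The long intergenic noncoding RNAs (lincRNAs) listed for embryonic and adult heart were left out, which removed 1 transcript within the bounds, TCONS_00028686. Because all 9 samples were used to choose the 21 transcripts, their levels are given as a description.

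The zebrafish heart has an atrium and a ventricle joined by valves, and it pumps from the first days of development. Between the embryo and the adult, the ventricle thickens and gains coronary vessels. Skeletal muscle shares the striated contractile apparatus with the heart, but the labels do not say which muscle was taken. The comparison with embryonic heart and muscle selects transcripts that were high only in adult heart among the tissue types sampled. Other adult tissues were not sequenced, so these transcripts may also be present there. A gene may also be read into several transcripts that differ in their start, exons, or end, and such isoforms can be used in one tissue and not in another. The values carry identifiers of the Cufflinks assembly without gene names, coordinates, or lengths. Therefore, no function is given for any of the 21 transcripts, the tissue labels could not be compared with marker genes, and no sequence is printed. In dissected tissue, fewer cells of a type and less RNA per cell cannot be told apart.

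Values above 10 FPKM in each adult heart sample were found for 4071 transcripts, and the 21 made up 0.516% of them. The same bounds held for 30 transcripts in embryonic heart alone, 224 in adult muscle alone, 68 in both hearts and not in muscle, and 41 in both adult tissue types with embryonic heart below the bound. Every sample has to meet its bound, so leaving a sample out could only keep or raise the number for adult heart. The number was 59 without adult heart sample 0, 30 without sample 1, and 34 without sample 2. It was 112 with the bounds applied to the tissue means and 184 with bounds on 2 of the 3 samples of each tissue type. Median-ratio rescaling lowered the values of all samples, those of adult heart by a factor of 1.40 to 1.45, while the bounds stayed the same. With it, 11 transcripts were within the bounds, and with quantile normalization 21 were.

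The FPKM scale had some features that bear on these transcripts. The summed FPKM per sample was between 2790000 and 4640000 in the adult samples and in embryonic heart sample 0, but 14480000 and 19190000 in embryonic heart samples 1 and 2. Between 14320 and 22693 transcripts were listed at exactly 0 in a sample, with the 3 highest numbers in embryonic heart. Fragment counts are not part of the values. The authors report the reads of all samples together but not of each sample, so the depth behind a single value is not known. FPKM divides by the length of the transcript, and a few fragments on a very short transcript can give a high value.

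The 21 transcripts fell into 2 classes outside adult heart, which were distinguished after the values were seen. A value of exactly 0 was listed in all 6 other samples for 13 of them. The other 8 had values above 0 in all 6 other samples, and no transcript was in between. Of the 48 values of these 8 transcripts outside adult heart, 25 were below 0.001 FPKM, down to 5.18e-91 FPKM, and 14 were above 0.1 FPKM. Isoform values are estimates that share fragments between overlapping transcripts, and a value such as 5.18e-91 FPKM does not stand for a whole fragment. Whether a transcript with such a small value is present in the tissue cannot be read from it. For the larger values, the depth of each sample and the transcript lengths would be needed, and they are not given.

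**Figure D1:**
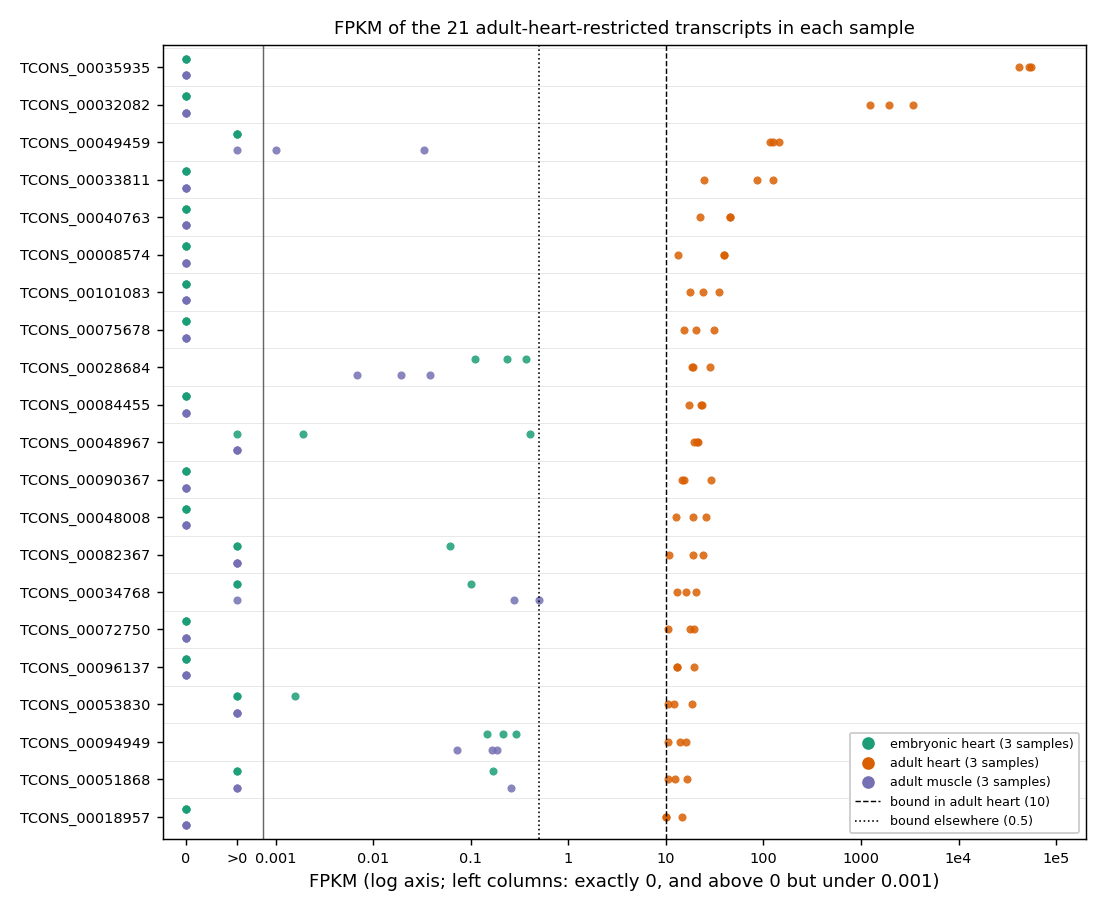
FPKM of the 21 transcripts in each of the 9 samples, in order of their adult heart mean, on a logarithmic axis with separate columns at the left for values of exactly 0 and for values above 0 but under 0.001. Adult heart values lie to the right of the dashed bound of 10 FPKM, 13 transcripts have all 6 other values in the column for 0, and 8 have their other values spread up to 0.497 FPKM.

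Most of the 21 transcripts had a moderate level in adult heart. The adult heart mean was below 20 FPKM for 10 of them, between 20 and 40 FPKM for 7, and higher for 4. The median was 20.5 FPKM, compared with 26.6 FPKM for the 4071 transcripts above 10 FPKM in each adult heart sample.

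The exception was TCONS_00035935, which was listed at 53200, 55906, and 42098 FPKM in adult heart samples 0, 1, and 2 and at 0 in the other 6 samples. Its mean of 50402 ± 7317 FPKM (SD, n = 3) was the value with rank 6 among all transcripts in adult heart. It made up between 1.51% and 1.75% of the summed FPKM of the adult heart samples, and the 21 transcripts together made up between 1.65% and 1.81%. The 3 samples differed by 1.33-fold at most.

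TCONS_00032082 was second, with 1926, 1245, and 3449 FPKM in adult heart samples 0, 1, and 2, and was listed at 0 elsewhere. Its spread was much wider, and sample 2 was 2.77-fold higher than sample 1. TCONS_00033811 had 126.6, 24.6, and 86.0 FPKM in the same order and was also listed at 0 elsewhere. Its 5.14-fold range was the widest of the 21 transcripts, with sample 1 far below the others.

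TCONS_00049459 had the highest level among the 8 transcripts with values elsewhere. It was measured at 145 FPKM in adult heart sample 0, 126 FPKM in sample 1, and 117 FPKM in sample 2. In embryonic heart it did not exceed 0.000533 FPKM, and in muscle its values were 0.0334, 0.00101, and 0.000762 FPKM. The adult heart samples thus lay close together and far from the other 6.

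TCONS_00048967 had the steadiest level, with 20.9, 21.2, and 19.3 FPKM in adult heart samples 0, 1, and 2. The coefficient of variation, the SD as a percentage of the mean, was 4.98%. Outside adult heart, only embryonic heart sample 0 had more than 0.01 FPKM, at 0.408 FPKM. TCONS_00082367 varied most among the 8, with 18.8, 24.0, and 10.7 FPKM in adult heart samples 0, 1, and 2 and 0.0615 FPKM in embryonic heart sample 2. Its other 5 values were below 0.001 FPKM.

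In 2 transcripts every one of the 6 other samples had a value above 0.001 FPKM. TCONS_00094949 had 16.0, 14.0, and 10.4 FPKM in adult heart samples 0, 1, and 2. It had 0.288, 0.145, and 0.214 FPKM in embryonic heart and 0.0717, 0.186, and 0.165 FPKM in muscle, so the embryonic heart and muscle samples overlapped. TCONS_00028684 had 18.5, 28.1, and 18.9 FPKM in adult heart samples 0, 1, and 2. In embryonic heart it had 0.109, 0.237, and 0.368 FPKM, all above its muscle values of 0.0191, 0.00686, and 0.0381 FPKM.

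The lincRNA that had been left out, TCONS_00028686, stands 2 identifiers after TCONS_00028684 and had the same order of tissue types. It had 24.3, 31.0, and 28.3 FPKM in adult heart samples 0, 1, and 2, with 0.0655, 0.0991, and 0.222 FPKM in embryonic heart and at most 0.0328 FPKM in muscle. For both transcripts, adult heart sample 1 was the highest of the adult heart samples and embryonic heart sample 2 the highest outside adult heart. The identifier between them, TCONS_00028685, did not exceed 0.05 FPKM in any sample.

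The remaining transcripts of this class were near a bound or close to 0. TCONS_00034768 had 20.6, 13.1, and 16.0 FPKM in adult heart samples 0, 1, and 2 and 0.497 FPKM in muscle sample 0, the value nearest to the bound of 0.5 FPKM. TCONS_00051868 had 16.6, 12.3, and 10.5 FPKM in adult heart, with 0.259 FPKM in muscle sample 0 and 0.170 FPKM in embryonic heart sample 1. TCONS_00053830 had 18.5, 10.5, and 12.03 FPKM in adult heart and at most 0.00157 FPKM elsewhere.

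The bounds cut through transcripts with similar values. The lowest adult heart values within the bound were 10.1 FPKM for TCONS_00018957 and 10.4 FPKM for both TCONS_00072750 and TCONS_00094949. Just outside were TCONS_00080117 at 9.90 FPKM and TCONS_00013112 at 9.79 FPKM. In total, 267 transcripts met the bound of 0.5 FPKM elsewhere and had at least 1 but not all adult heart samples above 10 FPKM. Transcripts also lay on both sides of the bounds elsewhere. The number of restricted transcripts was 16 with a bound elsewhere of 0.25 FPKM and 30 with 1 FPKM. In embryonic heart, the nearest value within the bound was that of TCONS_00048967, at 0.408 FPKM, and the nearest outside was 0.612 FPKM for TCONS_00003516. In muscle, the nearest within was 0.497 FPKM for TCONS_00034768, just under the bound, and the nearest outside was 0.876 FPKM for TCONS_00061953. The bound in embryonic heart alone kept out 181 transcripts, and that in muscle alone kept out 76.

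The tissue types were compared across all transcripts with limma on log2(FPKM + 0.1), with Benjamini-Hochberg adjustment over 69118 transcripts. Calls required an adjusted p under 0.05 and tissue means that differed by more than 2-fold. All 21 transcripts were called higher in adult heart than in embryonic heart, where 12.2% of all transcripts tested were called in this direction and 7.23% in the other. All 21 were also called higher in adult heart than in muscle, where the shares were 9.6% and 11.1%. The choice of the transcripts used these contrasts, so the counts restate it. For the 13 transcripts listed at 0 elsewhere, no fold can be formed. Both comparisons share the adult heart samples. For the other 8, the log2 fold change against embryonic heart ran from 5.43 for TCONS_00094949 to 10.33 for TCONS_00049459, and against muscle from 5.83 to 10.19 for the same transcripts. On this scale the pseudocount of 0.1 FPKM sets the size of the change, because most values outside adult heart lie below it.

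Between embryonic heart and muscle, 1 of the 21 transcripts was called. This was TCONS_00028684, whose embryonic heart values all lay above its muscle values. Of all transcripts tested, 10.9% were called higher and 17.3% lower in embryonic heart than in muscle. The choice of the transcripts held both tissue types below 0.5 FPKM, so the count is a description and no p-value is given. The call was lost with a pseudocount of 1 FPKM and in a fit of only these 2 tissue types.

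The level of the 21 transcripts was spread more widely over the adult heart samples than that of other transcripts. This is a description without a test, since the same samples chose the transcripts. The median coefficient of variation across the adult heart samples was 29.8%, compared with 13.8% for the 4071 transcripts above 10 FPKM in each adult heart sample. The interquartile ranges were 22.6% to 36.7% and 8.75% to 23.2%, respectively. The highest sample exceeded the lowest by more than 2-fold in 7 of the 21 transcripts (33.3%) and in 10.1% of the 4071. Without adult heart sample 0, the median was 13.9% over the 21 transcripts and 8.32% over the 4071.

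The medians of the 2 classes were unequal in this respect, and the difference was not tested. The 13 transcripts listed at 0 elsewhere had a median coefficient of variation of 34.4%, with values from 14.5% to 64.9%, and 6 of them had a range above 2-fold. In the 8 others, the median was 23.1%, and 1 had such a range. The highest value was in adult heart sample 0 for 4, in sample 1 for 4, and in sample 2 for 5 of the 13 transcripts. It was in sample 0 for 5 and in sample 1 for 3 of the 8 others. Of the 4071 transcripts, 60.8% were highest in sample 0, 11.3% in sample 1, and 27.9% in sample 2. The 21 transcripts were therefore not raised together in a single adult heart sample.

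On a scale set by other transcripts listed at 0 elsewhere, the values of 8 transcripts in the 3 adult heart samples stood in whole-number proportions. To describe this, the samples were first set on a common scale by the transcripts that were listed at 0 in all embryonic heart and muscle samples, had a value above 10 FPKM in at least 1 adult heart sample, and were not among the 21. The commonest ratio in these transcripts was 1.48 between adult heart samples 0 and 1 (6 of 15 transcripts with both values fell in its bin of 0.05 log2 units). It was 1.01 between samples 2 and 1 (15 of 58). Between samples 0 and 2 it was 1.47 (9 of 14). In all transcripts above 10 FPKM in both samples, the commonest ratio between samples 0 and 1 was 1.21, and that between samples 2 and 1 was 1.09.

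On this scale, TCONS_00096137 had 19.3, 13.02, and 13.1 FPKM in adult heart samples 0, 1, and 2, a proportion of 1 to 1 to 1 with a largest deviation of 0.107%. TCONS_00018957 had 14.7, 10.1, and 10.1 FPKM, also 1 to 1 to 1. TCONS_00048008 had 19.02, 12.8, and 25.7 FPKM, a proportion of 1 to 1 to 2. In all 3 transcripts, samples 0 and 1 thus had equal scaled values within the tolerance, although sample 0 was higher in FPKM.

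Proportions with a 3 were found in 4 transcripts. TCONS_00040763 had 22.2, 44.9, and 44.9 FPKM in adult heart samples 0, 1, and 2, a proportion of 1 to 3 to 3. TCONS_00008574 had 39.2, 39.5, and 13.3 FPKM, a proportion of 2 to 3 to 1. In this transcript sample 2 was the lowest, whereas in the other transcripts with a 3 it was sample 0 that was the lowest on the common scale. This pattern held for TCONS_00075678, which had 15.3, 20.5, and 31.4 FPKM, a proportion of 1 to 2 to 3. TCONS_00101083 had 17.8, 35.3, and 24.2 FPKM, a proportion of 1 to 3 to 2. The last of the 8 was TCONS_00084455, with 17.2, 23.0, and 23.6 FPKM and a proportion of 1 to 2 to 2.

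The step that 1 unit of these proportions was worth in adult heart sample 1 lay between 10.01 FPKM for TCONS_00018957 and 14.9 FPKM for TCONS_00040763. In transcripts with a 1 for sample 1, such as TCONS_00018957, the step is about the FPKM of that sample. The choice of the transcripts keeps that value above 10 FPKM, so the low end of this range partly restates the bound. The 8 transcripts made up 38.1% of the 21, and all were among the 13 listed at 0 elsewhere. The check was chosen after the ratios had been seen. Proportions of whole numbers up to 3, within a tolerance of 5%, were found in 15.2% of the 4071 transcripts above 10 FPKM in each adult heart sample. This share fell to 8.23% without the proportion of 2 to 3 to 3. Since none of the 8 transcripts had that proportion, leaving it out could lower only the share of the 4071. With a tolerance of 2%, all 8 still counted, compared with 3.34% of the 4071. With whole numbers up to 2 only, 4 counted, compared with 5.99%. With whole numbers up to 4, 10 of the 21 and 30.3% of the 4071 did, and with a tolerance of 10%, 18 of the 21 and 54.7% of the 4071. With whole numbers up to 6, the share of the 21 (13 transcripts, 61.9%) was below that of the 4071 (69.9%). These 13 transcripts were 9 of those listed at 0 elsewhere and 4 of the 8 others. The count also rested on the scale. When the samples were set on the commonest ratios of all transcripts above 10 FPKM, 3 of the 21 transcripts (14.3%) and 16.9% of the 4071 had such proportions. Of the 3, 1 was listed at 0 elsewhere and 2 had values elsewhere. Since the first scale came from transcripts of the same kind as the 13, the 2 classes and the 4071 are not on an equal footing on it. Whether 1 step is 1 sequenced fragment was not tested, because lengths and fragment counts are not part of the values.

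**Figure D2:**
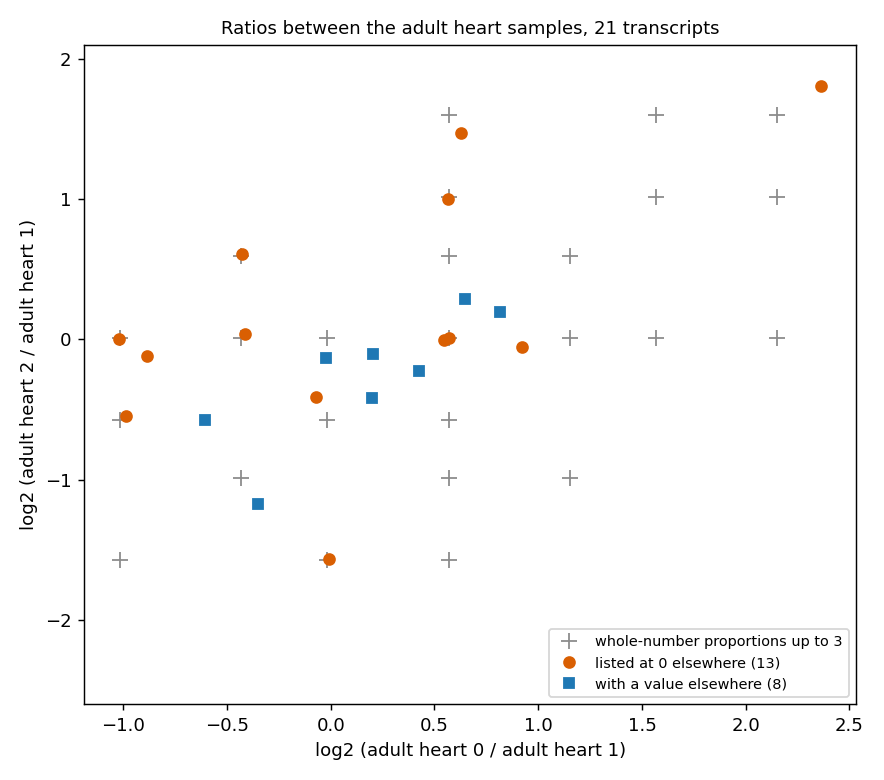
Log2 ratio of adult heart sample 0 to sample 1 (x axis) and of sample 2 to sample 1 (y axis) for the 21 transcripts, with crosses at the ratios given by whole numbers up to 3 on the common scale. Of the 13 transcripts listed at 0 elsewhere (circles), 8 lie on a cross within 5%, with 2 of them at the same cross, and the 8 transcripts with values elsewhere (squares) lie off the crosses.

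The other 5 transcripts listed at 0 elsewhere did not meet the tolerance. They were TCONS_00035935, TCONS_00032082, TCONS_00033811, TCONS_00090367, and TCONS_00072750, with deviations between 7.004% and 9.59% from the nearest such proportion. They included the 3 with the highest adult heart means of the 13. TCONS_00090367 had 28.8, 15.2, and 14.7 FPKM in adult heart samples 0, 1, and 2, and TCONS_00072750 had 10.4, 19.2, and 17.7 FPKM.

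Among transcripts with a value in adult heart and 0 in both other tissue types, a value in only 1 adult heart sample was commoner than a value in all 3. Of the 254 transcripts that were listed at 0 in all embryonic heart and muscle samples and had more than 10 FPKM in at least 1 adult heart sample, 164 (64.6%) had a value in 1 adult heart sample, 72 (28.3%) in 2, and 18 (7.09%) in all 3. The 13 restricted transcripts are part of the 18. Sample 1 alone had a value for 91 of the transcripts, sample 2 alone for 38, and sample 0 alone for 35. Some values found in a single adult heart sample were high. TCONS_00016434 had 7298 FPKM in sample 0 and TCONS_00090901 had 1773 FPKM in sample 1, and both were listed at 0 in the other adult heart samples. Samples 1 and 2 shared 53, while sample 0 shared 10 with sample 1 only and 9 with sample 2 only. The same count in embryonic heart gave 82, 9, and 4 transcripts with a value in 1, 2, and 3 samples, and in muscle it gave 85, 15, and 24.

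**Figure D3:**
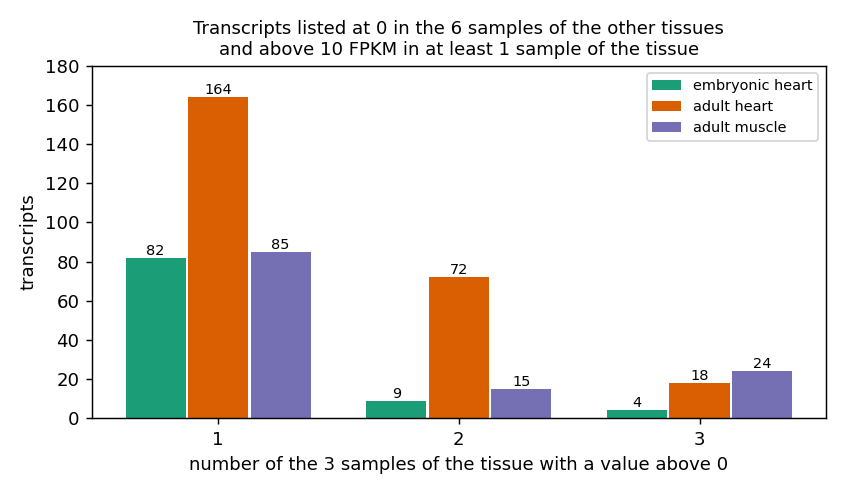
Number of transcripts listed at 0 in the 6 samples of the other tissue types and above 10 FPKM in at least 1 sample of the named tissue type (y axis), by the number of samples of that tissue type with a value above 0 (x axis). In adult heart the bars fall from 164 to 72 to 18, and in muscle the bar for 3 samples (24) is higher than that for 2 (15).

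The 5 transcripts of the 18 that were not restricted by the bounds had a value of 10 FPKM or less in at least 1 adult heart sample. TCONS_00050754 had 13.2, 8.95, and 8.98 FPKM in adult heart samples 0, 1, and 2, TCONS_00011506 had 13.2, 9.03, and 36.01 FPKM, and TCONS_00080117 had 14.6, 58.8, and 9.90 FPKM. In these 3 transcripts, samples 1 or 2 fell below the bound. The other 2, TCONS_00044908 and TCONS_00053087, were lowest in samples 1 and 2, at 3.91 and 4.78 FPKM. The 5 were among the transcripts that set the common scale, so their own proportions are not given.

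The 21 transcripts were scattered over the numbering of the assembly. Their numbers ran from 8574 to 101083, and the smallest distance between any 2 of them was 492, so none was next to another. Of the 4071 transcripts, 2 (0.0491%) were next to any of the 21, so neighbours among so few transcripts would be rare in any case. Whether neighbouring identifiers belong to the same gene is not part of the values and was not tested. The transcript 1 identifier away was above 10 FPKM in each adult heart sample for 2 of the 21 (9.52%), compared with 27.7% for the 4071 transcripts. It was above 10 FPKM in each embryonic heart or each muscle sample for 3 of the 21 (14.3%), compared with 30.7%. Some identifiers have no values and could not count as neighbours. TCONS_00096137 had none with values 1 step away, and TCONS_00008574 and TCONS_00048008 lacked the next identifier. Up to 5 identifiers away, this was found for 8 of the 21 (38.1%) and for 62.0% of the 4071.

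TCONS_00049459 stood among identifiers with other orders of the tissue types. Before it, TCONS_00049458 had 185.4, 201, and 176 FPKM in embryonic heart samples 0, 1, and 2, with a mean of 14.8 FPKM in adult heart and 34.6 FPKM in muscle. TCONS_00049457 had 29.5, 27.2, and 29.3 FPKM in the muscle samples, and did not exceed 0.125 FPKM in any heart sample. After it, TCONS_00049460 had 27.9, 18.0, and 19.5 FPKM in muscle and at most 3.68 FPKM in the hearts. TCONS_00049456, 3 identifiers before, was high in all 3 tissue types, with means of 721 FPKM in embryonic heart, 654 FPKM in adult heart, and 167 FPKM in muscle. The restriction of TCONS_00049459 to adult heart was thus not shared by any of these neighbours.

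For 2 more transcripts, the identifier 1 step away was high in muscle and low in both hearts. TCONS_00051867, 1 identifier before TCONS_00051868, had 13.8, 14.2, and 15.7 FPKM in the muscle samples and at most 0.305 FPKM in the hearts. TCONS_00075679, 1 identifier after TCONS_00075678, had 76.9, 45.4, and 27.6 FPKM in the muscle samples, 3.96 FPKM in adult heart sample 0, and was listed at 0 in the other heart samples. In both pairs the adult heart and muscle samples were separate in opposite directions.

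Some neighbours of TCONS_00034768 followed its pattern more closely. TCONS_00034767, 1 identifier before it, had 13.6, 14.5, and 10.9 FPKM in the adult heart samples, with a highest value of 0.933 FPKM elsewhere. That value lies above the bound of 0.5 FPKM, and TCONS_00034767 was therefore not among the 21. TCONS_00034769, 1 identifier after, had 6.08, 5.53, and 6.69 FPKM in adult heart and at most 1.22 FPKM elsewhere. TCONS_00034771 had 24.8, 23.2, and 22.3 FPKM in adult heart, at most 0.0336 FPKM in embryonic heart, and between 3.20 and 8.97 FPKM in muscle. In all 4 transcripts each adult heart sample was higher than each of the other 6 samples. TCONS_00034764 had the same order, with 7.51, 8.13, and 7.35 FPKM in adult heart and at most 4.87 FPKM elsewhere. So did TCONS_00034766, with 0.682, 0.267, and 0.440 FPKM in adult heart and at most 0.122 FPKM elsewhere. The rest of the identifiers up to 5 steps away did not share this order. TCONS_00034763 had a mean of 30.5 FPKM in muscle and 12.8 FPKM in adult heart. TCONS_00034772 had a mean of 0.865 FPKM in embryonic heart and 0.00149 FPKM in adult heart.

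For TCONS_00048967, the 3 identifiers before it were also confined mainly to adult heart, at lower levels. TCONS_00048966 had 4.79, 1.96, and 3.37 FPKM in adult heart and at most 0.662 FPKM elsewhere. TCONS_00048965 had 3.88, 4.34, and 5.79 FPKM, and at most 0.0389 FPKM elsewhere. TCONS_00048964 had 3.69, 3.07, and 1.52 FPKM in adult heart and stayed below 0.001 FPKM in the other samples.

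**Figure D4:**
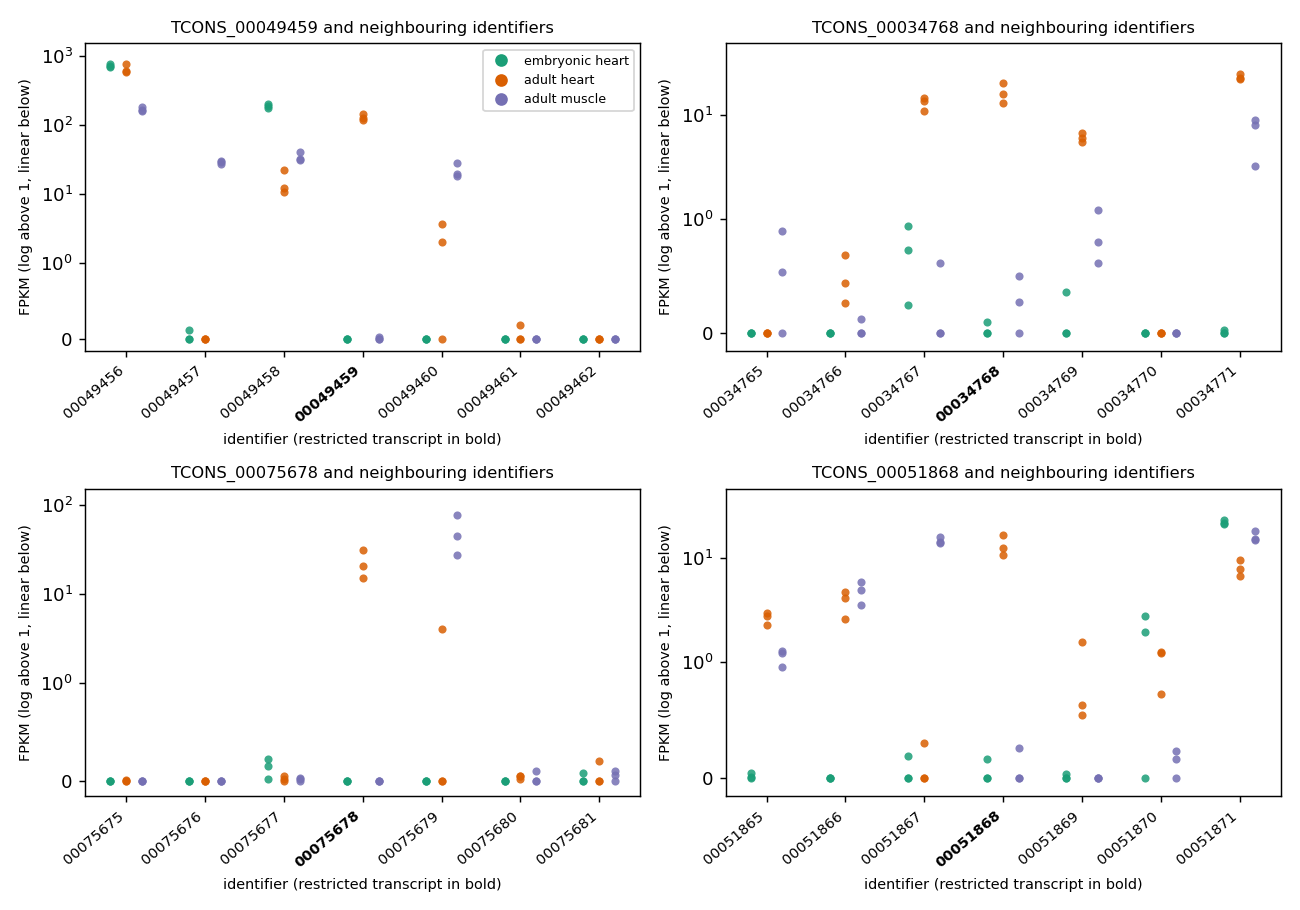
FPKM in each of the 9 samples (y axis, linear below 1 and logarithmic above) for 4 of the 21 transcripts and the identifiers up to 3 steps away (x axis, the restricted transcript in bold). Each of the 4 bold transcripts is high in adult heart only, with a neighbour high in muscle beside TCONS_00049459, TCONS_00075678, and TCONS_00051868 and adult-heart-high neighbours beside TCONS_00034768.

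Around the 2 transcripts with the highest levels, neighbouring values were low in every tissue type. The identifiers up to 4 steps from TCONS_00035935 did not exceed 2.91 FPKM in any sample, and those up to 4 steps from TCONS_00032082 did not exceed 1.64 FPKM. Some of these were higher in each adult heart sample than in the other 6, such as TCONS_00032083 with 0.742, 1.64, and 1.31 FPKM in adult heart and at most 0.204 FPKM elsewhere. For TCONS_00033811 and TCONS_00040763, the identifier before had a value in a single adult heart sample. This was 11.3 FPKM in sample 2 for TCONS_00033810 and 14.2 FPKM in sample 1 for TCONS_00040762, and both were listed at 0 in the other 8 samples.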

How the data were processed

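Reads of 50 bp were aligned by the authors with TopHat2 2.0.12 to Zv9 and assembled with Cufflinks 2.2.1, and each deposited FPKM value belongs to 1 assembled transcript in 1 sample, as written by Cuffnorm. The scaling used there is not given in the sources used here. Isoform values are estimates that share fragments between overlapping transcripts. Samples were grouped by the labels, and adult heart, embryonic heart, and muscle were compared with limma 3.58.1 in R 4.3.3 on log2(FPKM + 0.1), two-sided, with all 9 samples fitted together and the variance prior following the mean level. A transcript entered the test if the mean of some tissue type exceeded 0.1 FPKM, and p-values were adjusted by Benjamini-Hochberg. The fit was tested on simulated data. Other calculations used Python 3.11.15, numpy 2.4.6, pandas 2.3.3, and matplotlib 3.10.9.

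The 21 transcripts and the lists were chosen with earlier results of these data known. All 21 are named. Others are named where nearest to a bound, neighbouring in number, or listed at 0 outside adult heart. The check of whole-number proportions, with its tolerance, largest number, scale, and alternatives, was chosen after seeing the data. Correlations of deviations from the tissue means were between -0.0161 and 0.0715 for same-numbered samples and between -0.0603 and 0.0684 for the others. No block was used, since the labels do not say that same-numbered samples share an origin. Alternatives were pseudocounts, filters, rescaling, quantile normalization, the trend, the samples fitted, a replicate block, other bounds, and leaving out each sample.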

Additional observations from a re-analysis of the deposited data

How the results depend on the processing

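The number of restricted transcripts followed the bounds closely, with 40 at a bound of 5 FPKM in adult heart, 5 with 20 FPKM, 112 with bounds on the tissue means, and 184 with bounds on 2 of 3 samples. Median-ratio rescaling divided the values by 1.40 to 1.45 in adult heart, 1.15 to 1.18 in embryonic heart, and 1.41 to 1.46 in muscle. With it and unchanged bounds, the number was 11, compared with 21 after quantile normalization. Leaving out 1 sample at a time, which could only keep or raise the number, gave between 23 and 59. The highest number was without adult heart sample 0. Other bounds elsewhere (0.1, 0.25, and 1 FPKM) gave 16, 16, and 30. The median coefficient of variation was between 13.9% and 27.4% with 1 adult heart sample left out. Whole-number proportions counted 18 transcripts with a tolerance of 10%, 4 with whole numbers up to 2, 13 with whole numbers up to 6, and 3 on the scale of all transcripts. Neighbours above 10 FPKM in embryonic heart or muscle rose to 8 within 5 identifiers.

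All 21 transcripts were called higher in adult heart in both comparisons under every alternative of the limma fit. The call between embryonic heart and muscle fell to 0 with a pseudocount of 1 FPKM and with only the tissue types compared. In a fit with a replicate block, 11659 transcripts differed between the hearts, 12886 between adult heart and muscle, and 18351 between embryonic heart and muscle, and the block changed no call of the 21. Without the block, the numbers were 13419, 14301, and 19516. With rescaling or quantile normalization, the adult heart mean moved by more than its SD in 11 of 42 cases. The depth of each sample and the transcript lengths are not given, so no limit can be given for a transcript listed at 0.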
